A study of Arabidopsis thaliana with 32 samples.

Results

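Transcripts of 10 enzymes of the carotenoid pathway were followed through 32 libraries of whole Arabidopsis thaliana seedlings. The enzymes were chosen by gene identifier as enzymes of this pathway, with earlier results of these data known, and all 10 were found among the 19685 genes of the expression table and tested. They were phytoene synthase (PSY), phytoene desaturase (PDS), zeta-carotene desaturase (ZDS), carotenoid isomerase (CRTISO), lycopene beta-cyclase (LYCB), lycopene epsilon-cyclase (LUT2), the epsilon-ring hydroxylase CYP97C1 (LUT1), a beta-carotene hydroxylase (BCH1), zeaxanthin epoxidase (ZEP) and violaxanthin de-epoxidase (VDE). The study asked what the bZIP transcription factor HY5 does to transcription when dark-grown seedlings first meet light. It compared Columbia wild type (Col-0, called Col), the hy5 mutant (its allele is not named in the labels), and 3 transgenic lines that express tagged HY5 from the viral 35S promoter, which is active in most plant cells. The lines were 35S:FLASH-HY5 in hy5 (OX), 35S:FLASH-HY5-VP16 in hy5 (VP16), in which HY5 is fused to a viral activation domain, and 35S:FLASH-HY5-SRDX in hy5 (SRDX), in which it is fused to a repression domain. Every seedling was grown for 3 d in darkness, after a cold period and 1 h of white light to start germination, and about 40 seedlings made up a sample. All 5 genotypes were collected in darkness and after 1.5 h of simulated white light at 100 µmol m−2 s−1. Only hy5 and SRDX were also collected after 4 h. Each group had 3 libraries, apart from SRDX at all 3 times and hy5 at 4 h, which had 2. The labels do not say how many independent transgenic lines were used or whether replicates came from separate cultures, so a p-value here measures only how these libraries vary, which may be technical.

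Carotenoids are made in plastids from geranylgeranyl diphosphate. PSY joins a pair of these molecules into phytoene and is widely regarded as the rate-limiting enzyme of the pathway; PDS, ZDS and CRTISO then turn colourless phytoene into red lycopene. LYCB and LUT2 close the rings at the ends of lycopene, LUT1 and BCH1 add hydroxyl groups that make lutein and zeaxanthin, and ZEP and VDE convert zeaxanthin to violaxanthin and back in the xanthophyll cycle. In dark-grown seedlings the pathway supplies the etioplast, and on illumination it supplies the photosystems, where carotenoids harvest light and quench excess energy; HY5 and the PIF factors are known to act on PSY in opposite directions during this transition.

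PSY, BCH1 and ZEP had the widest range of levels among the 10 genes, and the 300 bases directly before their annotated starts are shown. Sequences and positions are from RefSeq TAIR10.1 and all 3 genes lie on the minus strand, so each is written 5′ to 3′ as the reverse complement. Capitals mark ACGT, the core of the elements that bZIP factors such as HY5 recognise.
PSY, chr5:5662998-5663297: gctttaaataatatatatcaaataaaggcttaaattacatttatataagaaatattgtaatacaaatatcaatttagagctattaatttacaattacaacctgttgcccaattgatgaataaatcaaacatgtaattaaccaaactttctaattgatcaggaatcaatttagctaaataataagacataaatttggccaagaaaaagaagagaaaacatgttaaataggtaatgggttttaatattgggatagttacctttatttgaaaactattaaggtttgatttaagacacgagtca
BCH1, chr4:13096050-13096349: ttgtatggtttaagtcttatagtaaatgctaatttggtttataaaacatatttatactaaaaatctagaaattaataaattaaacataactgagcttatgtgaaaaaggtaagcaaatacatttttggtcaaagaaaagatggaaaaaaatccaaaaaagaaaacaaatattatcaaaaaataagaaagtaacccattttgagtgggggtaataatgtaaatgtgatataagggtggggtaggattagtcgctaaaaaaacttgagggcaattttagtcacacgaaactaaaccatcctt
ZEP, chr5:26757403-26757702: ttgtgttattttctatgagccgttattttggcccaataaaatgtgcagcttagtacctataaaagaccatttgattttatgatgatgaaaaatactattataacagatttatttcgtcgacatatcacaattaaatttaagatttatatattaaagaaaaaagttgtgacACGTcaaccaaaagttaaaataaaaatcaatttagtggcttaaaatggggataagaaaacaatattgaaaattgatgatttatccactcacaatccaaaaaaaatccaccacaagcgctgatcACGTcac
ZEP held ACGT at 130 and at 7 bases before its start, as ACACGTCA and TCACGTCA with 2 flanking bases on each side, whereas the windows of PSY and BCH1 held none. Of the 10 genes, 5 had ACGT in this window (ZDS, CRTISO, LUT2, LUT1 and ZEP), against 49.5% of the 19380 genes of the table with such a window. The windows of LUT2 (all 300 bases), VDE (293), LUT1 (122) and LYCB (52) overlap another annotated gene. The full G-box CACGTG and the C-box GACGTC were in 0 of the 10 windows and in 8.23% and 2.77% of all windows. Over 1000 bases ACGT was present before 9 of the 10 genes, all but PDS, against 85.1% of all genes. These motifs are palindromes, so a match covers both strands, and the G-box and C-box each contain ACGT; a match describes letters and not a bound site.

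Levels are given in CPM, read counts divided by a scale for each library that the study's authors set. Libraries held 7499581 to 21420680 reads assigned to genes, and replicate pairs differed by more than counting error. HY5 transcript, counted over the endogenous gene and the transgene together, was 21.7 to 30.0 in Col in darkness and 206.8 to 232.2 at 1.5 h. In hy5 it was 19.4 to 24.4 in darkness, 25.1 to 25.2 at 1.5 h and 79.1 to 85.4 at 4 h. It was 8198 to 16907 in OX, 1946 to 2619 in VP16 and 759.5 to 1082 in SRDX, so the 3 lines differ in transgene level as well as in the fused domain. Marker genes of shoot, epidermis, endodermis and vascular tissue were present in every group. The summed level of 3 seed storage markers was 10.2 to 16.0 in the 6 SRDX libraries and 1.08 to 6.58 in all others, and that of 3 root hair markers was 7.80 to 18.0 in VP16 and 0.147 to 6.12 in all others. CRC carried the dark SRDX seed sum (mean 8.71), while OLEO1 had its lowest group mean, 0.312, in dark SRDX. The summed level of 3 epidermis markers was lower in VP16 than in hy5 at 1.5 h (915.3 to 1077 against 1621 to 1817). It was lower in SRDX than in hy5 at 4 h (2062 to 2159 against 2500 to 2721). In darkness it was below hy5 (1244 to 1403) in OX (762.8 to 1238), VP16 (728.1 to 916.6) and SRDX (744.1 to 1057), while Col overlapped hy5. That of 3 endodermis markers was lower in SRDX than in hy5 at all 3 times. It was 185.3 to 216.9 against 292.2 to 319.8 in darkness and 242.0 to 264.2 against 316.6 to 325.1 at 1.5 h. At 4 h it was 258.4 to 260.0 in SRDX and 286.9 to 314.6 in hy5. The endodermis sum was also below hy5 in OX (238.0 to 289.8) and VP16 (207.5 to 243.4) in darkness, where Col overlapped hy5. At 1.5 h it was below hy5 in Col (303.4 to 313.9), OX (215.1 to 291.2) and VP16 (239.5 to 271.1). The sum of 3 shoot markers was higher in VP16 than in hy5 in darkness (7204 to 11063 against 5688 to 6719). It was also higher at 1.5 h (10688 to 13153 against 8661 to 9950). The part of these differences in the results on Col, OX, VP16 and SRDX was not tested. In whole seedlings, fewer cells of a type and less RNA per cell cannot be told apart. Reads at shared ends can also be assigned to a neighbour, since the files do not state whether counting used strand. PSY shares 108 bases with GSTF12 on the other strand, which was at 0 to 6.37 in all libraries. Also on the other strand, ZDS shares 115 with DRT102 (34.45 to 75.2), LYCB 157 with EMB2804 (15.56 to 28.65) and VDE 464 with SYP111 (10.36 to 26.33). LUT2 shares 74 bases with NMT1 (68.56 to 131.1) on its own strand, and the LUT1 model runs over a neighbour on its strand that was not analysed here.

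Light raised 5 to 10 of the 10 enzymes within 1.5 h, depending on genotype. A gene is called here at an adjusted p under 0.05, from a limma fit over all genes on log2(level + 1), and every log2 difference and its standard error (SE) is on that scale. In Col 8 of the 10 enzymes rose, against 18% of all genes called higher. In hy5 9 rose (16.4% of all genes), in OX 9 (23.6%), in VP16 all 10 (22.4%) and in SRDX 5 (13.9%), and none of the 10 fell in any genotype. The SRDX count was 3 without replicate 1 at 1.5 h and 4 without any 1 of the other SRDX libraries of that comparison. The median difference over the 10 enzymes was 0.55 in Col, 0.49 in hy5, 0.81 in OX, 0.55 in VP16 and 0.33 in SRDX. These 5 comparisons use separate libraries. Between 4 h and darkness 9 enzymes rose in hy5 (24.5% of all genes), and in SRDX 8 rose (23.1%) and 1 fell (23.6%). The plot of levels by library shows that PSY, BCH1 and ZEP ranged 7.37-, 5.92- and 10.98-fold from lowest to highest group mean, and the other 7 enzymes from 1.81-fold (LYCB) to 2.64-fold (LUT2).

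**Figure D1:**
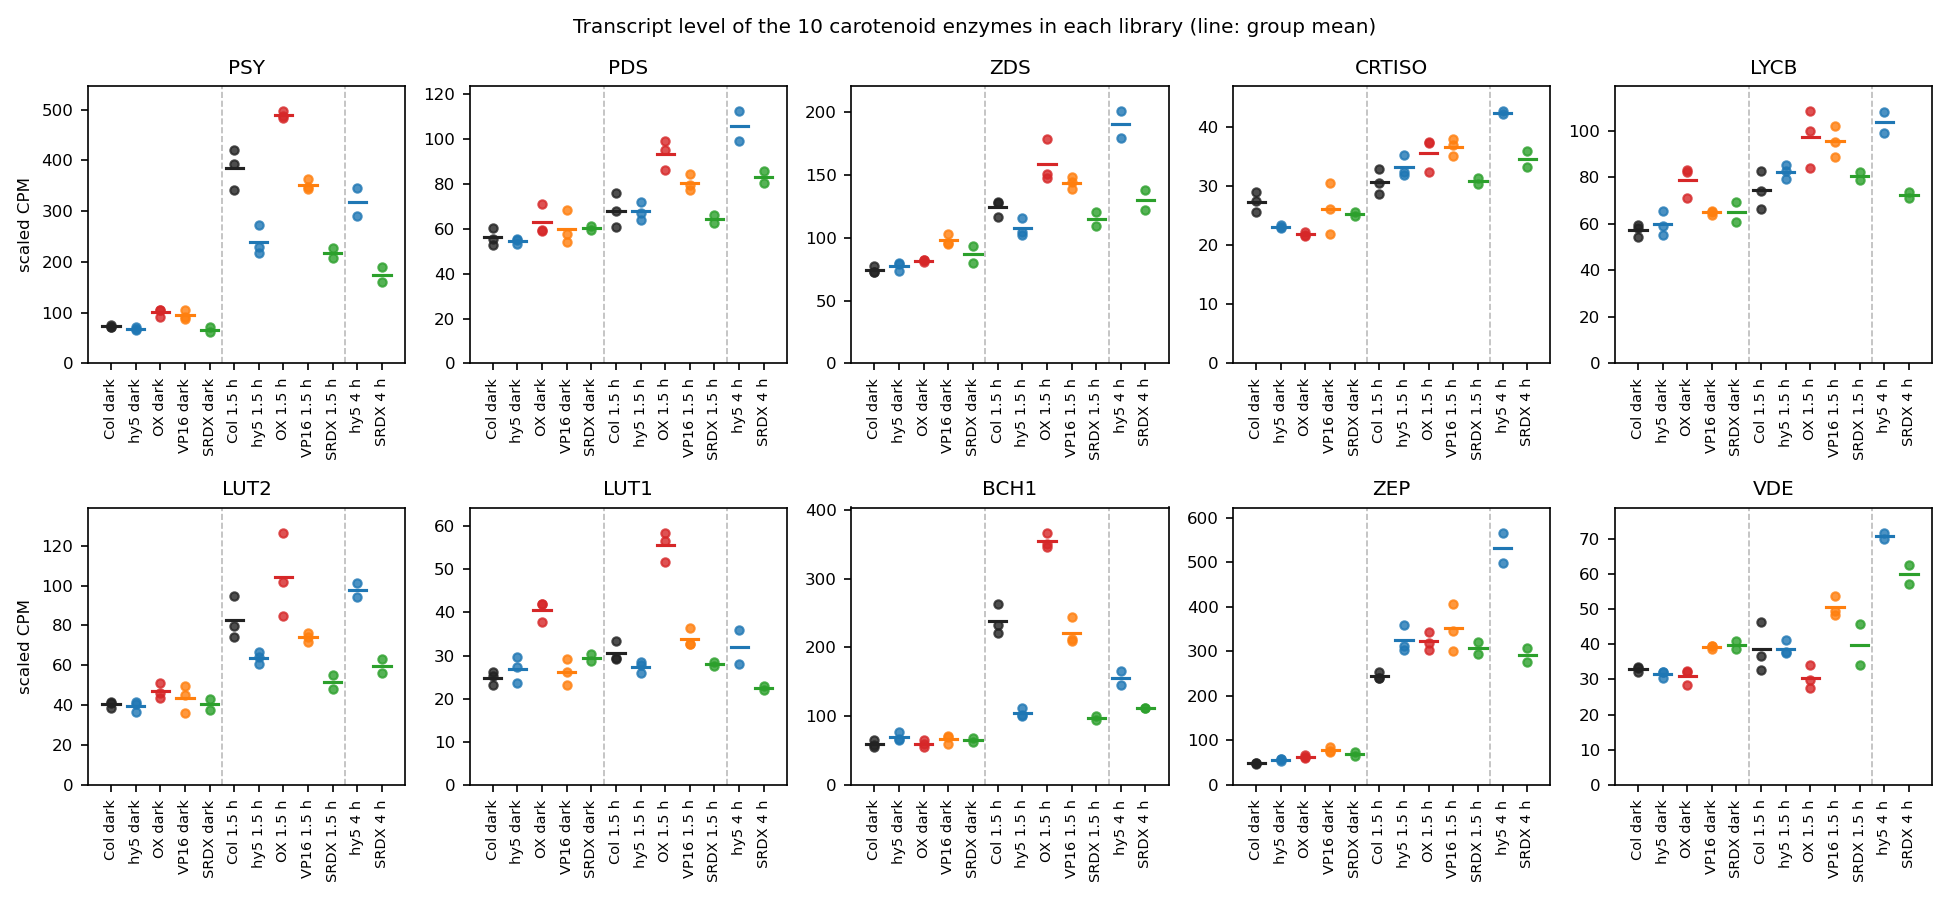
Level of each enzyme transcript (vertical axis, scaled CPM, from 0) in each of the 32 libraries (points), by group along the horizontal axis, with the group mean as a line; dashed lines separate darkness, 1.5 h and 4 h of light. PSY reached 484.2 to 497.1 in OX at 1.5 h, and ZEP reached 498.0 and 566.6 in hy5 at 4 h.

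In darkness, no enzyme was called different between Col and hy5. The libraries of ZEP (47.7 to 48.9 in Col, 53.8 to 57.5 in hy5) and CRTISO (25.6 to 29.0 and 22.9 to 23.5) nevertheless did not overlap. With limma 0 were called (2.02% of all genes), 3 had an unadjusted p under 0.05, and edgeR and DESeq2 on recovered reads also called 0; the log2 differences ran from −0.22 to 0.23. SRDX in darkness likewise had 0 called against hy5 (9.71% of all genes, with 2 at an unadjusted p under 0.05 and 0 by edgeR and DESeq2), whereas OX had 3 higher (6.72%) and VP16 4 higher (11.1%). At 1.5 h Col had 3 enzymes above hy5 (5.11% of all genes) and 1 below (4.05%), OX 6 above (12.6%) and 1 below (12.6%), and VP16 5 above (13.1%). SRDX had 0 called at 1.5 h (6.5% of all genes, with 1 at an unadjusted p under 0.05 and 0 by edgeR and DESeq2; 1, LUT2, was called when the compared groups were fitted alone). At 4 h SRDX had 8 below hy5 (9.65%) and none above. That count was 6 when the compared groups were fitted alone, where PDS and LUT1 were lost (adjusted p 0.117 and 0.0895), and 6 to 7 when 1 library was left out. PDS was lost without either SRDX library at 4 h or hy5 replicate 1 at 4 h (0.0803 to 0.263), and LUT1 without SRDX replicate 2 (0.0542) or hy5 replicate 1 (0.162) at 4 h. These comparisons share the hy5 libraries. The median over the 10 enzymes at 4 h was −0.50, while the median over all genes lay within 0.04 of 0 in every comparison.

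PSY, the entry enzyme (AT5G17230, chr5:5659554-5662997, minus strand, 8 exons), had one of the largest light responses and a graded dependence on genotype. In darkness its level was 76.6, 71.4 and 72.1 in the 3 Col libraries and 71.5, 65.8 and 68.8 in hy5. At 1.5 h it was 419.7, 393.3 and 342.5 in Col and 272.3, 230.0 and 217.5 in hy5. The genotypes overlapped in darkness, and at 1.5 h no hy5 library reached the lowest Col library. The rise was 2.37 in Col (SE 0.10, adjusted p 1.70e-18) and 1.78 in hy5 (SE 0.10, adjusted p 2.73e-15), and the difference between these rises was 0.59 (SE 0.14, adjusted p 0.00671).

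In OX, PSY was at 91.5, 106.1 and 104.9 in darkness and at 484.2, 487.7 and 497.1 at 1.5 h, above every hy5 library at both times (by 0.54 and 1.03 on the log2 scale, adjusted p 0.000231 and 9.48e-10). In VP16 it was at 105.0, 88.5 and 92.4 in darkness and at 363.1, 348.4 and 343.3 at 1.5 h, again above all hy5 libraries (by 0.46 and 0.56). SRDX stood with hy5 at these times, with 61.6 and 71.4 in darkness and 226.9 and 208.2 at 1.5 h. The light response was larger in OX than in hy5 by 0.49 (SE 0.14, adjusted p 0.0167), a call that was lost without OX replicate 1 in darkness (adjusted p 0.0522) or hy5 replicate 3 at 1.5 h (0.0650). For VP16 the difference in response was 0.09 and was not called.

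At 4 h PSY differed between hy5 and SRDX. It was at 346.6 and 289.8 in hy5, higher than at 1.5 h by 0.41 (adjusted p 0.00540; 0.179 without hy5 replicate 1 at 4 h). In SRDX it was at 160.0 and 189.1, lower than hy5 by 0.86 (adjusted p 2.72e-06). Within SRDX the difference of 4 h from 1.5 h was −0.32 with an adjusted p of 0.0485, which passed the threshold neither with edgeR (0.0566) and DESeq2 (0.0530) nor without replicate 1 or 2 at 1.5 h or replicate 1 at 4 h (0.0934 to 0.385). Ordered by mean, OX at 1.5 h was highest and did not overlap the next group; Col at 1.5 h, VP16 at 1.5 h and hy5 at 4 h followed, each overlapping its neighbour, and SRDX in darkness was lowest, 7.37-fold below OX at 1.5 h.

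The desaturases and the isomerase moved less. PDS (AT4G14210, chr4:8190190-8195320, minus strand) carries out the first desaturation steps on phytoene. It was at 52.7 to 60.4 in dark Col and hy5 and at 60.5 to 75.7 in the same genotypes at 1.5 h. Its rise was 0.27 in Col and 0.31 in hy5, 0.56 in OX and 0.42 in VP16; in SRDX the difference was 0.09 and was not called. The Col call was lost without replicate 2 or 3 in darkness or replicate 1 or 2 at 1.5 h (adjusted p 0.0541 to 0.156), and the hy5 call without replicate 1 at 1.5 h (0.0674). In OX at 1.5 h, PDS reached 86.2, 99.0 and 94.9, above all 3 hy5 libraries by 0.46 (SE 0.09, adjusted p 0.000373).

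ZDS (AT3G04870, chr3:1342455-1346387, plus strand, 14 exons), which continues the desaturation towards lycopene, rose in all 5 genotypes. It was at 77.4, 72.7 and 72.9 in dark Col and at 127.6, 128.8 and 116.9 at 1.5 h, a rise of 0.73 (SE 0.08, adjusted p 1.43e-08). In OX it went from 82.4, 81.0 and 82.4 to 178.7, 147.6 and 150.9, a rise of 0.94 that was larger than that of hy5 by 0.48 (SE 0.115, adjusted p 0.00538). In SRDX the rise was 0.40 (adjusted p 0.00273), a call lost without SRDX replicate 2 in darkness (0.0868) or replicate 1 at 1.5 h (0.0607). VP16 stood above every hy5 library in darkness (0.34, adjusted p 0.00306) and at 1.5 h (0.42, adjusted p 0.000217). At 4 h ZDS was at 200.9 and 179.9 in hy5 and at 122.6 and 138.3 in SRDX.

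CRTISO (AT1G06820, chr1:2092946-2096784, minus strand), which sets the bonds of lycopene in the trans form, was the member for which no genotype was called different from hy5 in any comparison. It was at 23.5, 23.1 and 22.9 in dark hy5, at 35.3, 32.02 and 32.5 at 1.5 h and at 42.3 and 42.8 at 4 h. These 3 sets of hy5 libraries did not overlap, and the rises were 0.50 (adjusted p 5.54e-05) and 0.35 (adjusted p 0.0119), the second of which was lost without either hy5 library at 4 h (0.0746 and 0.0600). In Col the level was 25.6 to 29.0 in darkness and 28.7 to 32.9 at 1.5 h, groups that overlapped and were not called. SRDX at 4 h was at 33.3 and 36.1, with a difference from hy5 of −0.29 that was not called (adjusted p 0.0721).

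At the branch of the pathway, the cyclases differed from each other. LYCB (AT3G10230, chr3:3164075-3166038, minus strand, 1 exon), which makes beta rings, rose modestly in every genotype at 1.5 h, by 0.30 in OX and SRDX to 0.55 in VP16. The OX call was lost without OX replicate 1 in darkness or replicate 3 at 1.5 h (adjusted p 0.0651 and 0.0770), and the SRDX call without SRDX replicate 1 in darkness or either library at 1.5 h (0.108 to 0.297). Its only genotype difference from hy5 before 4 h was in dark OX, at 71.3, 82.3 and 82.9 against 59.3, 55.0 and 65.6 in hy5 (0.39, SE 0.09, adjusted p 0.00463). At 4 h it was at 108.1 and 99.2 in hy5 and at 71.3 and 73.8 in SRDX, a difference of −0.51 (adjusted p 0.00150).

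LUT2 (AT5G57030, chr5:23077120-23080096, plus strand, 11 exons), which makes the epsilon ring and so commits carotene to lutein, responded more to light. It was at 41.0, 41.6 and 38.7 in dark Col and at 79.5, 74.1 and 94.7 at 1.5 h, a rise of 1.01 (SE 0.12, adjusted p 2.80e-08). In OX it rose by 1.12 to 84.5, 101.5 and 126.5, the widest spread of any group for this gene. In SRDX it was at 37.8 and 42.9 in darkness and 55.2 and 48.2 at 1.5 h, sets that did not overlap, with a difference of 0.35 that was not called (adjusted p 0.0685). OX exceeded hy5 at 1.5 h by 0.68 (adjusted p 4.31e-05). The Col excess over hy5, 0.36 with an adjusted p of 0.0454, was lost without Col replicate 1 or 3 or any 1 of the hy5 libraries at 1.5 h (0.0652 to 0.269). At 4 h hy5 was at 94.3 and 101.5 and SRDX at 56.2 and 63.2, a difference of −0.70 (SE 0.14, adjusted p 0.000549).

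The hydroxylases had unlike profiles. BCH1 (AT4G25700, chr4:13093869-13096049, minus strand, 6 exons), which hydroxylates the beta rings, was at 55.3 to 77.2 in all 14 dark libraries with no genotype called different. At 1.5 h it was at 263.0, 220.6 and 232.9 in Col, at 349.7, 366.6 and 345.4 in OX and at 243.9, 208.8 and 211.6 in VP16. In hy5 it was at 111.1, 101.9 and 100.3, and in SRDX at 100.4 and 93.8, so that every Col, OX and VP16 library lay above every hy5 and SRDX library. The rise was 1.98 in Col and 0.58 in hy5, and the responses of Col, OX and VP16 exceeded that of hy5 by 1.40, 1.96 and 1.14 (SE 0.13 for each; adjusted p 5.25e-09, 3.59e-12 and 2.86e-07). For SRDX the difference from the hy5 response was −0.03 and was not called.

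BCH1 went on rising in hy5, to 145.7 and 165.4 at 4 h (0.57 above 1.5 h, adjusted p 0.000120), and was still below every Col library at 1.5 h. In SRDX it was at 111.5 and 111.4 at 4 h, 0.47 below hy5 (adjusted p 0.00286), a call lost without hy5 replicate 2 at 4 h (0.0557). The 4 h response of SRDX and hy5 differed by −0.40 for this gene and was not called.

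LUT1 (AT3G53130, chr3:19692757-19697542, plus strand, 12 exons), which hydroxylates the epsilon ring in the last step to lutein, had a weak light response. It rose by 0.29 in Col, 0.44 in OX and 0.36 in VP16, and the Col call was lost without replicate 1 in darkness or at 1.5 h (adjusted p 0.101 and 0.116). It was at 29.6, 27.5 and 23.7 in dark hy5 and at 28.6, 26.0 and 27.8 at 1.5 h, sets that overlapped and were not called. It stood out in OX, with 42.0, 42.1 and 37.8 in darkness and 51.7, 58.5 and 56.6 at 1.5 h, above every library of every other group at each of these times. These were 0.58 (adjusted p 0.000150) and 0.99 (adjusted p 3.95e-09) above hy5. VP16 was 0.62 below OX in darkness and 0.70 below at 1.5 h (adjusted p 7.61e-05 and 5.28e-06), and 0.29 above hy5 at 1.5 h, a call lost without hy5 replicate 2 or 3 or VP16 replicate 2 (0.0582 to 0.122). In SRDX LUT1 fell between darkness (28.6 and 30.4) and 4 h (23.0 and 21.9), by 0.38 (adjusted p 0.0114), a call lost without replicate 2 of either group (0.0754 and 0.0727).

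In the xanthophyll cycle, ZEP (AT5G67030, chr5:26753469-26757402, minus strand, 16 exons), which makes violaxanthin and with it the precursors of abscisic acid, rose strongly in every genotype, and its order of genotypes was not that of PSY or BCH1. It was at 48.8, 48.9 and 47.7 in dark Col and at 53.8, 57.5 and 57.4 in hy5. At 1.5 h it was at 241.2, 253.7 and 241.1 in Col and at 359.4, 312.0 and 302.6 in hy5. Every Col library was therefore below every hy5 library both in darkness and in the light. In darkness the difference was not called. At 1.5 h Col was lower by 0.40 (SE 0.09, adjusted p 0.00380, and 0.0509 without hy5 replicate 1 at 1.5 h). The rise at 1.5 h lay between 2.14 and 2.51 in all 5 genotypes, and no difference from the hy5 response was called at that time. OX at 1.5 h, at 303.8, 344.3 and 318.8, overlapped hy5. At 4 h ZEP reached 498.0 and 566.6 in hy5, the highest of any group and 10.98-fold above dark Col. SRDX at 4 h was at 277.2 and 307.7, 0.86 below hy5 (adjusted p 1.61e-06), and its difference from SRDX at 1.5 h was −0.07 and not called.

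VDE (AT1G08550, chr1:2706868-2709988, plus strand, 5 exons), which returns violaxanthin to zeaxanthin in strong light, was late in hy5 and SRDX, the only genotypes collected at 4 h. In VP16 it had risen by 1.5 h, from 38.7 to 39.5 in darkness to 48.2 to 53.7, a call kept whichever library was left out. The hy5 levels follow. It was at 30.4 to 32.2 in the 3 dark hy5 libraries, at 37.5, 37.7 and 41.2 at 1.5 h and at 69.9 and 71.7 at 4 h. Most of the change came after 1.5 h (0.85, SE 0.12, adjusted p 2.60e-06), and the call for the earlier rise of 0.29 was lost when any 1 of the 6 libraries was left out (0.0521 to 0.123). SRDX also rose between 1.5 h (34.0 and 45.7) and 4 h (57.1 and 62.6), by 0.59 (adjusted p 0.00135; 0.0742 without SRDX replicate 1 at 1.5 h). At 1.5 h VP16 was highest, at 48.2, 53.7 and 49.6, and OX lowest, at 29.8, 27.7 and 34.2. The pair of HY5 lines differed by 0.71 (SE 0.10, adjusted p 8.14e-06), with VP16 above hy5 by 0.37 and OX below it by 0.34. In darkness VP16 was also above hy5, by 0.31, and that call was lost when any 1 of the 6 libraries was left out (0.0595 to 0.104). Dark SRDX, at 38.6 and 40.9, likewise lay above every dark hy5 library and was not called. At 1.5 h the OX call was lost without hy5 replicate 3 or OX replicate 2 (0.0798 and 0.0982).

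**Figure D2:**
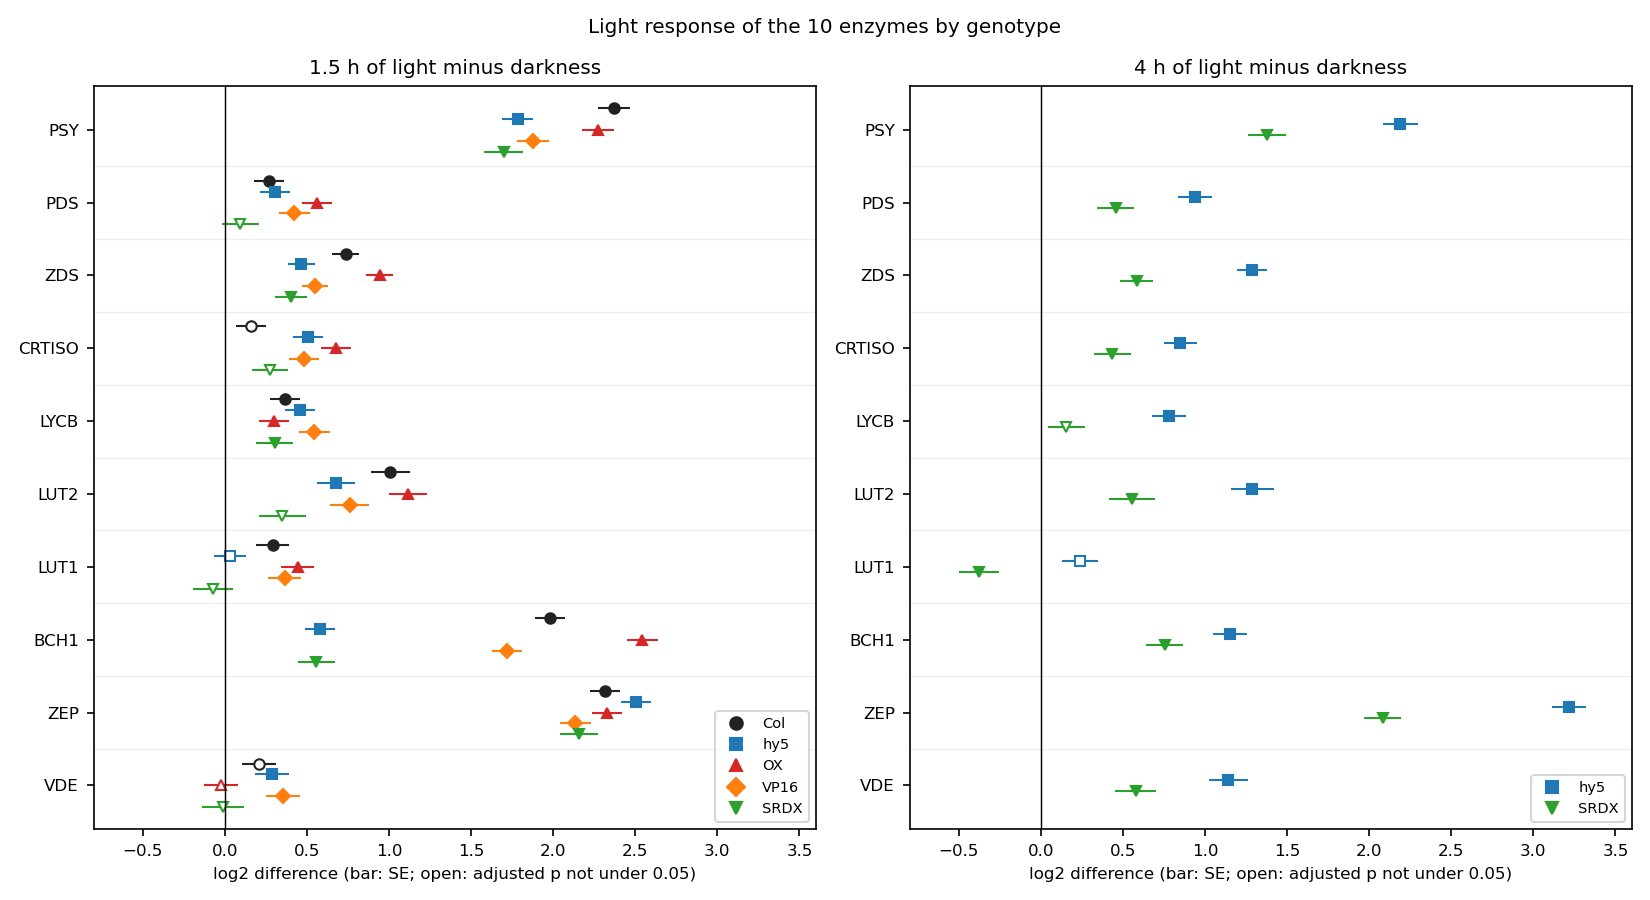
Log2 difference between light and darkness (horizontal axis, on log2(level + 1)) of each enzyme, at 1.5 h for 5 genotypes on the left and at 4 h for hy5 and SRDX on the right; bars are SE and open markers did not pass an adjusted p of 0.05. BCH1 separates Col (1.98), OX (2.54) and VP16 (1.72) from hy5 (0.58) and SRDX (0.56), whereas ZEP lies between 2.14 and 2.51 in all of them.

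**Figure D3:**
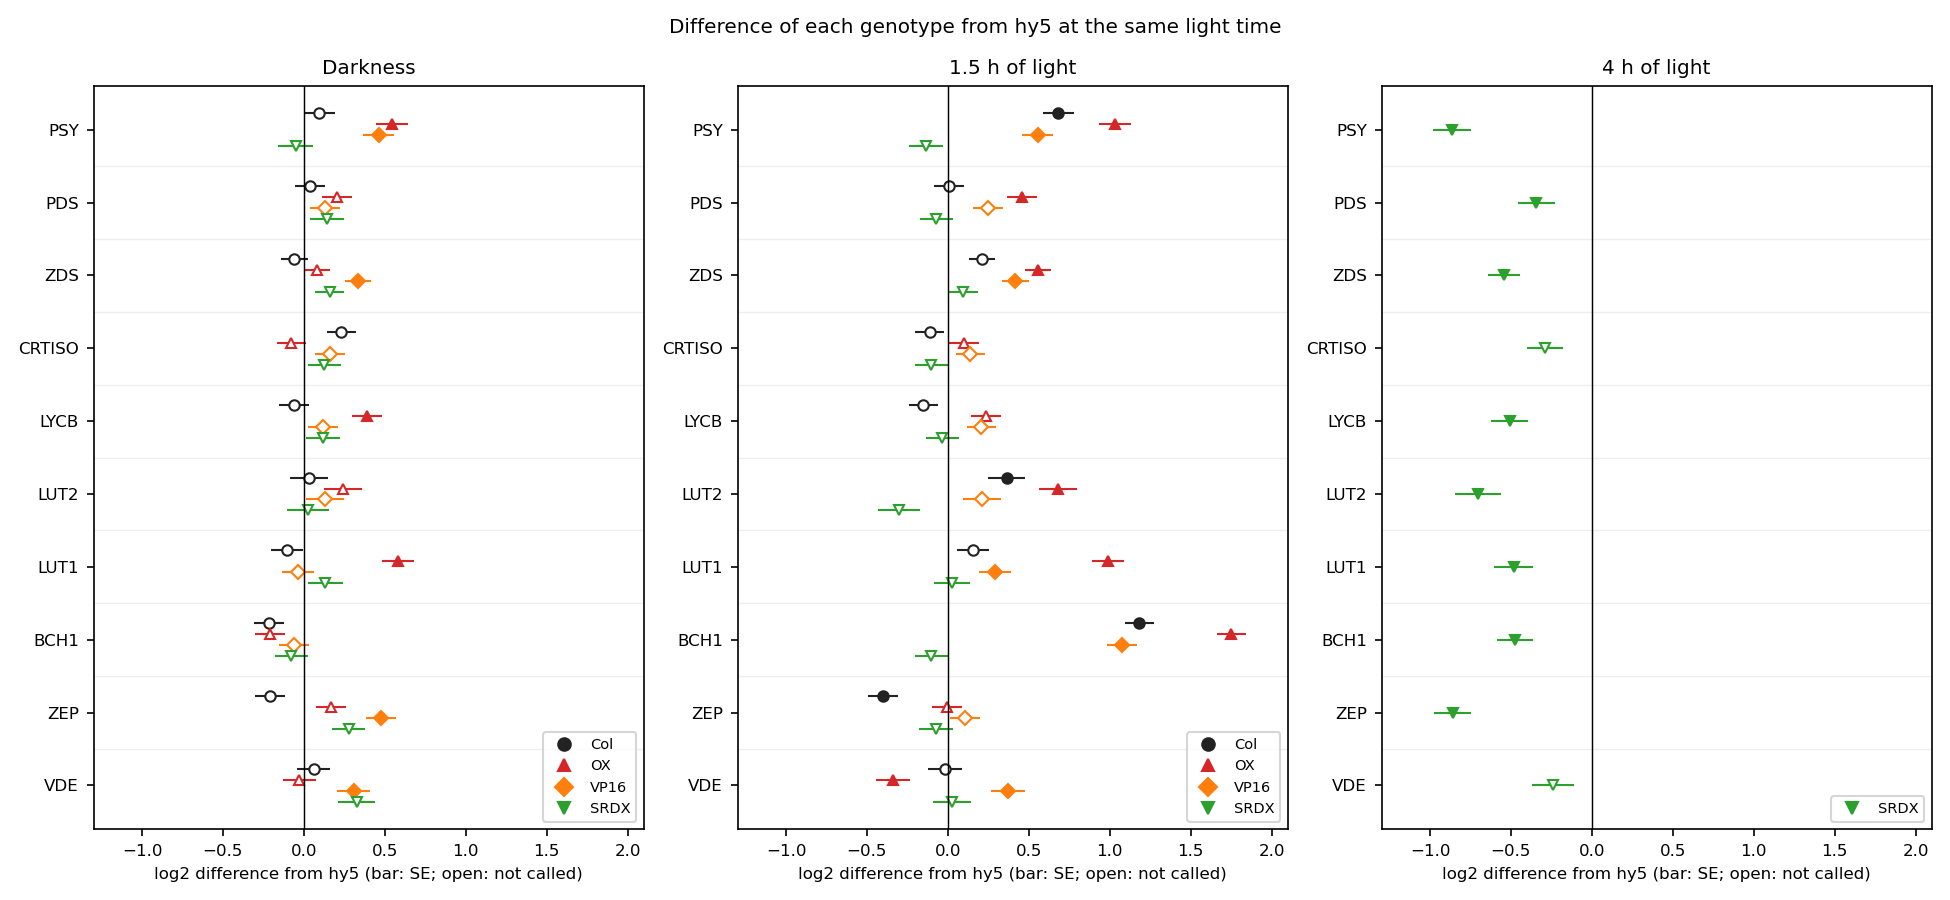
Log2 difference of each genotype from hy5 (horizontal axis, on log2(level + 1)) in darkness, at 1.5 h and at 4 h; bars are SE and open markers did not pass an adjusted p of 0.05. BCH1 and PSY lie to the right for Col, OX and VP16 at 1.5 h, and all 10 values of SRDX lie to the left of 0 at 4 h, from −0.86 to −0.24.

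Differences between light responses were tested directly as an interaction. Against hy5 at 1.5 h, the response was larger in Col for 2 enzymes (PSY and BCH1; 2.9% of all genes were called larger), in OX for 3 (PSY, ZDS and BCH1; 5.98%) and in VP16 for 1 (BCH1; 5%). Without OX replicate 1 at 1.5 h the OX count was 5, and without VP16 replicate 2 at 1.5 h the VP16 count was 2. For SRDX at 1.5 h 0 enzymes were called with limma, edgeR and DESeq2, with 1 at an unadjusted p under 0.05, and only 0.127% of all genes were called. At 4 h the SRDX response was smaller than that of hy5 for 8 enzymes (5.74% of all genes), from −0.49 for PDS to −1.14 for ZEP. PSY, ZDS and ZEP were called whichever library was left out. The count was 3 without SRDX replicate 2 in darkness, and 5 without either SRDX library at 4 h or without hy5 replicate 1 at 4 h. Seed storage markers summed to 10.6 and 16.0 in SRDX and 2.93 and 6.18 in hy5 at 4 h; their part in this difference was not tested.

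**Figure D4:**
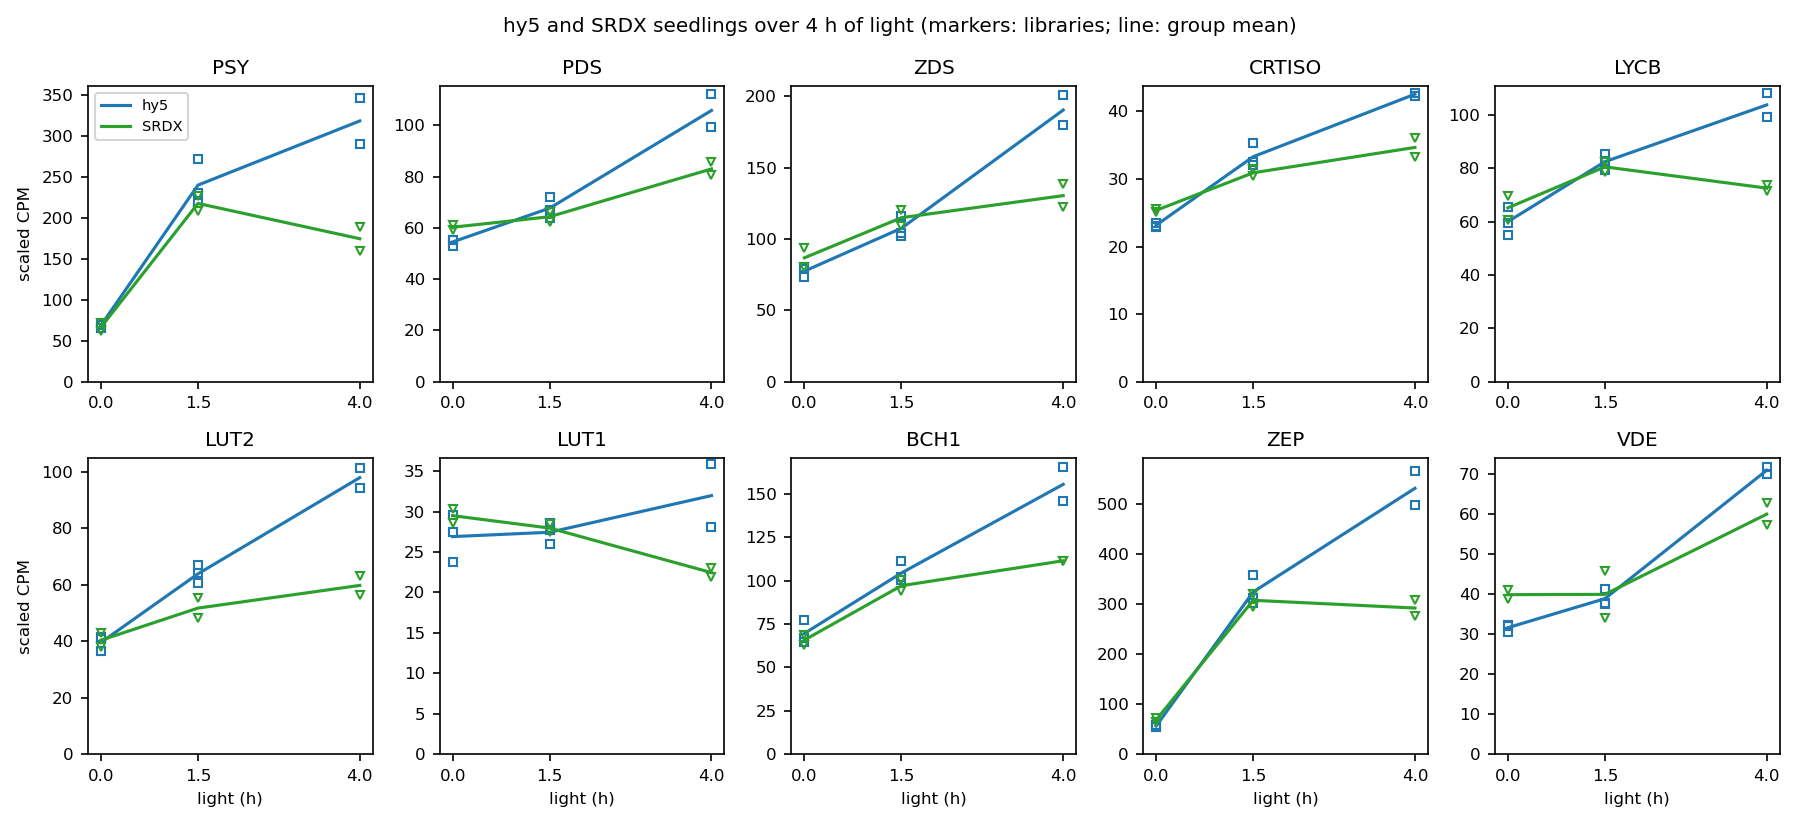
Level of each enzyme (vertical axis, scaled CPM, from 0) against hours of light in hy5 and SRDX; markers are libraries and lines join group means. At 4 h the mean was 532.3 in hy5 against 292.5 in SRDX for ZEP and 318.2 against 174.5 for PSY.

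The HY5 fusions were also compared with each other. VP16 and OX differed for 4 enzymes in darkness, with ZDS, ZEP and VDE higher in VP16 (5.7% of all genes) and LUT1 lower (5.66%). Only LUT1 was called there when the compared groups were fitted alone, and leaving out 1 library gave counts of 1 to 3. At 1.5 h BCH1, LUT1, LUT2 and PSY were lower in VP16 than in OX (10.8% of all genes), by 0.47 to 0.70, and VDE was higher (11%). SRDX was below OX at 1.5 h for 7 enzymes (16.7%), with BCH1 lower by 1.86 and PSY by 1.17, and above it for VDE (17.5%). VDE overlapped there (34.0 and 45.7 in SRDX, 27.7 to 34.2 in OX), and its difference was 0.16 (adjusted p 0.451) without SRDX replicate 2 and was not called without OX replicate 2 (0.0757). LYCB was lost without OX replicate 2 or 3 or either SRDX library (0.107 to 0.217), and the count of enzymes called was 6 to 8 when 1 library was left out and 6 when the compared groups were fitted alone. In darkness SRDX was below OX for PSY and LUT1 (7.86%) and above it for VDE (9.06%). There the VDE call was lost with DESeq2 (adjusted p 0.0582) and without OX replicate 3 (0.122 by limma). With the compared groups fitted alone, VDE and LUT1 were lost (0.126 and 0.0551 by limma). Without SRDX replicate 1 the differences were 0.31 for VDE and −0.41 for LUT1, and without SRDX replicate 2 that for VDE was 0.39. Each of these fits keeps 1 SRDX library in darkness, so no call is read from them. VP16 exceeded SRDX for PSY alone in darkness (0.51; 9.73% of all genes) and for 6 enzymes at 1.5 h (15.4%), with BCH1 highest at 1.18; that count was 3 without SRDX replicate 2 at 1.5 h. From 1.5 h to 4 h, 9 enzymes rose in hy5 (13% of all genes), and in SRDX PDS and VDE rose (10.8%) and PSY fell (12.2%). The SRDX counts were 0 without replicate 1 at 1.5 h, and 1 without replicate 2 at 1.5 h or replicate 1 at 4 h.

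Per kilobase of the longest annotated transcript, the levels within dark Col were highest for PSY (34.9 CPM per kilobase), ZDS (34.5) and BCH1 (33.9) and lowest for LUT1 (7.41), whose annotated model may be too long because it runs over a neighbour. At 1.5 h in Col the order was PSY (183.2), BCH1 (135.5) and ZEP (94.6), and LUT1 was last at 9.13. At 4 h in hy5, ZEP was first (205.4) and PSY second (151.4). Over the 12 group means of log2(level + 1), the genes most like PSY among 5732 with enough range and level were SPS2 (Pearson r 0.989), AT5G57345 (0.989), KEA3 (0.989), RUP2 (0.988) and AT2G28320 (0.988). The gene most like ZEP was AT5G02830 (0.994), and the one most like BCH1 was AT2G41040 (0.987). LUT1 had the least similar nearest gene, AT5G54870 (0.907). All 12 means come from the same libraries and light is common to most of their range.

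The lists of other genes of the pathway were set by role, with earlier results of these data known. Some of the genes named from them were picked by a small adjusted p, and so by how they moved. Of 7 further carotenoid genes, 5 rose and 1 fell in Col at 1.5 h, where 18% of all genes were called higher and 17.9% lower. BCH2, the second beta-carotene hydroxylase, rose in all 5 genotypes, by 1.66 in hy5 to 2.92 in VP16. Unlike BCH1, it was called different from hy5 in the 3 transgenic lines in darkness and in no genotype at 1.5 h. Dark Col, at 14.8 to 17.3, lay below every dark hy5 library and was not called (−0.31, adjusted p 0.207 by limma). In darkness it was at 18.0 to 22.7 in hy5, 7.49 to 8.36 in OX, 5.98 to 8.53 in VP16 and 9.13 to 9.28 in SRDX (−1.26, −1.43 and −1.07, with adjusted p 2.66e-08, 9.67e-10 and 3.23e-06). At 1.5 h no genotype was called different from hy5 (0.26 in Col, −0.21 in OX, −0.17 in VP16 and −0.16 in SRDX). LUT5, the hydroxylase CYP97A3 that works with LUT1, was higher than hy5 in OX by 1.93 in darkness and by 2.60 at 1.5 h, where it was at 90.6 to 93.5 against 12.5 to 16.2; Col was higher by 1.02 at 1.5 h. The plastid protein AT5G61670, annotated as a homologue of cauliflower OR, which in cauliflower promotes carotenoid accumulation, rose by 0.45 to 0.98 at 1.5 h in all 5 genotypes, and it was lower in SRDX than in hy5 at 4 h by 0.60 (adjusted p 0.000222). Another gene of the list, OR-like (AT5G06130), fell at 1.5 h in all 5 genotypes, by 0.24 in Col to 0.46 in SRDX. From darkness to 4 h OR-like fell by 0.93 in hy5 and 0.98 in SRDX.

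Of 10 genes of the plastid pathway that supplies the precursor, 6 rose and 1 fell in Col at 1.5 h, and in hy5 7 rose and 1 fell (15.7% of all genes were called lower in hy5). DXS, the enzyme that starts that supply, was above hy5 in darkness in OX by 0.71 and in VP16 by 1.03, and rose with light in Col (0.53) and hy5 (0.67). At 4 h DXS was lower in SRDX than in hy5 by 0.84 (adjusted p 5.69e-05), with 3 of the 10 genes called: DXS and HDS lower (9.65% of all genes) and IDI1, an isomerase of the precursor, higher (8.24%). GGPPS11, which makes geranylgeranyl diphosphate, rose in all 5 genotypes at 1.5 h, by 0.29 in OX to 1.01 in SRDX, and was below hy5 in OX at 1.5 h by 0.53 (adjusted p 0.000381).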

How the data were processed

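Poly(A) RNA of whole seedlings was sequenced with a strand-marking kit, per the labels' protocols. The deposited table holds, for each gene and library, a CPM-like signal: the authors divided read counts by 1 scale per library, and columns sum to 925942 to 1066829. Build TAIR10 and the tools edgeR 3.16.5, Bowtie2 2.2.2.0, HTSeq 0.6.0, TopHat2 2.0.11, CASAVA 1.8.2 and SAMtools 0.1.19.0 are listed, without roles, per the submitters' processing notes; whether counting used strand is not given in the sources used here. Each deposited value was a whole multiple of its library's value of 1 read, within 0.01 reads for 100% of values, so read counts were recovered for the count tests. The authors' deposited log2 fold changes were not used.

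Each of 29 comparisons was tested with limma 3.58.1 (R 4.3.3; trended eBayes, all 32 libraries, 1 mean per group) on log2(value + 1), with Benjamini-Hochberg adjustment over all 19685 genes and a call at an adjusted p under 0.05. A filter of at least 1 in 2 libraries removed 0 genes. Groups of 2 libraries borrow the spread of the others. The script was tested on simulated data with known changes. Alternatives were a pseudocount of 0.25, no filter, median-of-ratios scaling, a replicate block, a fit of only the groups compared, edgeR 4.0.16 and DESeq2 1.42.0 on recovered reads, and leaving out each library. Same-numbered libraries deviated together, with every pair's correlation over 0.1, in 2 of the 12 comparisons with 3 pairs (Col against hy5 in darkness, 0.172 to 0.306; VP16 against OX at 1.5 h, 0.111 to 0.225); the labels give no other source of pairing.

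Members and lists were chosen with earlier results of these data known. All 10 members are named; of the other lists, DXS, BCH2, PIF1, PIF3, the OR homologue and the called genes with the 3 smallest adjusted p per list and comparison could be named. Likeness is a Pearson correlation over 12 group means among genes with a range of at least 1 (log2) and a mean of at least 5. Positions, exons, lengths and sequences are from RefSeq TAIR10.1, matched by gene identifier for all 10 members. NCED2, NCED6 and CCD7 of the lists were not analysed here. Figures were drawn with matplotlib 3.10.9. With 7499581 to 21420680 reads a library, the lowest level of any member in any library was 21.6 CPM.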

Additional observations from a re-analysis of the deposited data

Results flagged for a closer look

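Light responses that differed from that of hy5, by limma interaction tests with adjustment over all genes, were found for 9 of the 10 enzymes, all but CRTISO. This count pools the tests of all genotypes and times. Of all genes, 2.9% were called larger in Col, 5.98% in OX and 5% in VP16 at 1.5 h. In SRDX at 4 h 5.74% were called smaller, and PDS, LYCB, LUT2, LUT1, ZEP and VDE entered the count only there. At 1.5 h the rise of BCH1 was larger than in hy5 by 1.399 in Col (adjusted p 5.25e-09), by 1.962 in OX (3.59e-12) and by 1.137 in VP16 (2.86e-07). The rise of PSY was larger by 0.5882 in Col (0.00671) and by 0.4882 in OX (0.0167), and that of ZDS by 0.4771 in OX (0.00538). The levels at 1.5 h were higher in every library of the named genotype than in every hy5 library.

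The change from darkness to 4 h in SRDX differed from that in hy5 by −1.137 for ZEP (adjusted p 1.45e-05), −0.812 for PSY (0.00140), −0.7328 for LUT2 (0.0139), −0.7018 for ZDS (0.00118) and −0.6267 for LYCB (0.00839). It differed by −0.6152 for LUT1 (0.0153), −0.5655 for VDE (0.0337) and −0.4862 for PDS (0.0404). Each of these rests on 2 libraries a genotype at 4 h and 2 of SRDX in darkness.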

How the results depend on the processing

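Of 290 values (10 enzymes in 29 comparisons), 143 were called, 109 higher and 34 lower, and 103 of these were called under every alternative and with each library left out; none of the 143 changed sign. Fitting the compared groups alone lost 16 calls, edgeR 4, DESeq2 3, a pseudocount of 0.25, median-of-ratios scaling and the replicate block 1 each, and dropping the filter 0. With the compared groups alone the number of enzymes called was 1 for SRDX against OX in darkness, 1 for SRDX against hy5 at 1.5 h and 1 for VP16 against OX in darkness; edgeR gave 2 for the last. With the replicate block that number was 5 for VP16 against OX in darkness, 6 for VP16 against hy5 at 1.5 h and 7 for SRDX against OX at 1.5 h, where LYCB was lost; no other call was lost. Leaving out 1 library gave 2 to 4 enzymes for Col against hy5 at 1.5 h, 3 to 4 for the SRDX light response at 1.5 h and 0 to 2 for SRDX at 4 h against 1.5 h. It gave 1 to 4 for SRDX and 1 to 3 for VP16 against OX in darkness, and 3 to 7 for VP16 against SRDX at 1.5 h. Among interactions it gave 2 to 5 for OX, 1 to 2 for VP16 and 3 to 7 for SRDX at 4 h. Where a group keeps 1 library, its spread is assumed to be that of the others. The cause of these shifts was not tested. A further limit is that 4 h holds no Col, OX or VP16.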

Other observations

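Of the 9 genes of carotenoid cleavage and abscisic acid synthesis that were tested, 3 were called between Col and hy5 at 1.5 h, CCD1 higher (5.11% of all genes) and CCD4 and NCED3 lower (4.05%). The libraries of NCED3 overlapped, at 13.2 to 31.7 CPM in Col and 27.2 to 36.5 in hy5 (adjusted p 0.0447 by limma). CCD4, a plastid dioxygenase that degrades carotenoids, was at 4.12 to 11.4 CPM in all dark libraries. At 1.5 h it was at 26.3 to 42.5 in hy5 and at 31.8 and 33.1 in SRDX, against 5.17 to 6.33 in Col and 5.02 to 6.90 in OX. Its rise was 2.31 in hy5 and 1.97 in SRDX (log2, adjusted p 8.5e-13 and 4.4e-09 by limma), and the response differed from that of hy5 by −2.11 in Col and −2.60 in OX. VP16 lay between, at 20.1 to 25.1. CCD1, a cytosolic dioxygenase, was at 180.2 to 206.9 in hy5 at 1.5 h, at 269.1 to 286.0 in Col, 401.9 to 415.1 in OX and 281.2 to 343.8 in VP16 (0.51, 1.07 and 0.66 above hy5). It was already above hy5 in darkness in OX (0.64) and VP16 (0.45). NCED5, which makes the abscisic acid precursor, was at 1.05 to 2.24 in the 6 SRDX libraries and at 0 to 0.780 in all others, levels of few reads.

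Among 8 regulators linked to the pathway, HYH, the closest relative of HY5, was above hy5 in Col, OX and VP16 in darkness and at 1.5 h (by 2.2 to 3.57) and below it in SRDX at 1.5 h and 4 h (by 0.66 and 1.34). PIF3, a factor that holds back greening in darkness, fell at 1.5 h in every genotype, by 0.36 in VP16, where its libraries overlapped, and by 1.03 to 1.18 in the others. PIF5 of the same list went the other way and rose in all 5 genotypes, by 1.28 in VP16 to 1.92 in SRDX. PIF4 rose by 0.76 in OX to 0.98 in Col in all but VP16, where its difference of 0.07 was not called. PIF1, known as a repressor of PSY in darkness, was not called at 1.5 h against darkness in any genotype, rose by 0.51 at 4 h in both hy5 and SRDX, and was below hy5 in VP16 at 1.5 h by 0.66.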
